A study of Mus musculus with 2 samples.

Results

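Monoamine neuron genes are described here as 10 genes chosen by symbol, out of 37310 annotated genes of the mouse mm9 build, by a rule that uses no expression value. They are Th, Dbh and Tph2 (enzymes), Slc18a2 (the vesicular transporter), Slc6a3, Slc6a2 and Slc6a4 (plasma membrane transporters) and Nr4a2, Pitx3 and Fev (transcription factors). Their exon reads and splice junction reads were counted in 2 RNA-Seq libraries of whole brain from F1 embryos at E17.5. The BxC library came from an embryo with a C57BL/6J mother and a CastEi/J father, and the CxB library from the reciprocal cross, so that both embryos carry 1 genome of each strain, given by opposite parents. No treatment, deletion or transgene was used in either cross. C57BL/6J is the common laboratory strain behind the reference genome, and CastEi/J (CAST) is a wild-derived strain. By the study's methods each library came from 1 unpooled brain, the CxB brain was male, and the sex of the brain behind the deposited BxC library is not stated in the sources used here. On the Y chromosome the BxC library had 1852 reads at 319 positions and the CxB library 18212 at 7336, and the part of sex in the ratios was not tested. The study compared reciprocal crosses to look for expression that depends on the parent of origin. The deposited alignments list positions without read bases, so the share of each allele was not computed.

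Dopamine, noradrenaline and adrenaline are made from tyrosine, and serotonin from tryptophan, by small groups of neurons in the midbrain, hypothalamus and brainstem whose axons reach most of the brain. Tyrosine hydroxylase and tryptophan hydroxylase open the pathways, aromatic amino acid decarboxylase follows in both, and dopamine beta-hydroxylase turns dopamine into noradrenaline. The vesicular transporter loads all of these amines into vesicles, and each cell group has its own transporter for uptake from outside the cell. In the mouse these neurons are born in mid-gestation, so that they are in place late in embryonic life but remain a minor part of the cells of a whole brain.

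The BxC library held 128944754 aligned reads and the CxB library 109719746, at 36575945 and 31155725 distinct alignments (lines of the alignment file, called positions below). Reads are the sum of the number given with each alignment, taken as identical reads from its values, and these totals exceed the average yield per library in the study's methods, so that read counts rest on that reading and positions do not. Of the reads, 6.47% and 6.20% crossed a splice junction. A level is given as RPKM, the usual scale that divides exon reads by kb of exon and by library size, with an exact Poisson interval at 95%, and a ratio is the log2 of CxB over BxC counts scaled to library size (RPM), with an exact binomial interval at 95%. The intervals hold the error of counting alone. Each cross is a single library, so the crosses were not tested against each other, no p-value is given, and every difference below is between these 2 libraries. A count of 0 allows up to 3 reads, or 0.0233 and 0.0273 RPM.

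Reads across exon junctions show which spliced messages were present. The sequences below are the coding junctions with the most reads of each member with at least 10 junction reads in all for that intron, and for Slc18a2 also the next junction, where the reads fell off. Each holds 15 bases of the upstream exon in lower case and 15 bases of the downstream exon in capitals, 5′ to 3′ on the gene's strand, read from the mm9 genome.
Th exons 2 and 3: ttgaaagtgtttgagACATTTGAAGCCAAA
Tph2 exons 2 and 3: cttagactattccagGAAAAACATGTCAAC
Dbh exons 10 and 11: ccacatggtaaacagGTTCAGCAGTGAGGA
Slc18a2 exons 2 and 3: tgctcaccgtcgtagTTCCCATCATTCCCA
Slc18a2 exons 3 and 4: acttctaaccaacagAATTGGCTATCCAAT
Slc6a3 exons 13 and 14: gggtccttccgagagAAACTGGCCTATGCC
Slc6a4 exons 13 and 14: cctctgtttctcctgTTCATCATTTGCAGT
Nr4a2 exons 3 and 4: aaaggtttctttaagCGCACGGTGCAAAAA

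In all 8 of these junctions the intron opens with GT and closes with AG. The Th junction spans chr7:150083008-150083870 on the minus strand and was crossed by 53 BxC and 24 CxB reads. The Slc18a2 junction between exons 2 and 3, over chr19:59335944-59337429 on the plus strand, was crossed by 165 and 104 reads. The next one, over chr19:59337782-59347371, was crossed by 3 and 2 reads. Slc6a2, Pitx3 and Fev had no coding junction with this many reads.

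All 10 members had exon reads in both libraries, and 9 of them had at least 100 reads in each. Pitx3 was the exception. The members differed in level by more than an order of magnitude. Nr4a2 and Slc18a2 stood well above the other 8, which lay between 0.389 and 1.86 RPKM, while protein-coding genes with reads had a median of 3.02 RPKM (BxC) and 3.06 RPKM (CxB). Of the 9 members with 100 reads in each library, 0 were 1.5-fold apart between the crosses, where 1.10% of 15427 annotated genes were (0.473% higher in CxB and 0.622% higher in BxC). At that share, 0 of 9 does not set the members apart from other genes.

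Among the enzymes, Th (chr7:150078657-150117033, minus strand), which makes L-DOPA and is the rate-limiting step for all catecholamines, had 430 exon reads in BxC and 382 in CxB. This was 1.41 RPKM (1.28 to 1.55) and 1.47 RPKM (1.33 to 1.63). Dbh (chr2:27020753-27038720, plus strand), which marks noradrenergic and adrenergic neurons, had 383 and 283 reads, or 1.10 RPKM (0.996 to 1.22) and 0.958 RPKM (0.850 to 1.08). Tph2 (chr10:114515697-114622078, minus strand), the tryptophan hydroxylase of brain neurons, had 301 and 222 reads. Its levels were 0.811 RPKM (0.722 to 0.908) in BxC and 0.703 RPKM (0.613 to 0.802) in CxB. The intervals of the 2 libraries overlapped for each of these enzymes, and Th was the highest of the 3 in both. The log2 ratio was 0.06 (-0.14 to 0.26) for Th, -0.20 (-0.43 to 0.02) for Dbh and -0.21 (-0.46 to 0.05) for Tph2, so that each interval held 0. By positions Th was at 0.01 (-0.26 to 0.28), Dbh at 0.06 (-0.27 to 0.39) and Tph2 at -0.10 (-0.46 to 0.25), so that the sign for Dbh turned between the counts. In a bulk sample, fewer cells of a type and less RNA per cell cannot be told apart.

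Slc18a2 (VMAT2, chr19:59335368-59370502, plus strand) had 3418 BxC and 2946 CxB reads at 802 and 780 positions. Its levels of 6.97 RPKM (6.74 to 7.21) and 7.06 RPKM (6.81 to 7.32) were 4.59 and 3.79 times that of the next gene in the same library, a plasma membrane transporter, and 2.15 and 2.42 times by positions per kb. This level rests on the 5′ exons, as shown further on. The log2 ratio was 0.02 (-0.05 to 0.09) by reads and 0.19 (0.05 to 0.34) by positions.

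Of the plasma membrane transporters, the dopamine transporter Slc6a3 (chr13:73674195-73716120, plus strand) had 662 BxC and 706 CxB reads, or 1.49 RPKM (1.37 to 1.60) and 1.86 RPKM (1.73 to 2.00). This was the member furthest apart between the libraries. Its log2 ratio was 0.33 (0.17 to 0.48) by reads and 0.35 (0.11 to 0.59) by positions, with CxB higher in both, and 96.4% of the genes tested had a lower ratio. The serotonin transporter Slc6a4 (chr11:76812105-76845842, plus strand) had 886 and 856 reads, or 1.52 RPKM (1.42 to 1.62) and 1.72 RPKM (1.61 to 1.84). Its log2 ratio was 0.18 (0.05 to 0.32) by reads and 0.08 (-0.11 to 0.28) by positions, so that its interval left out 0 only when reads were counted. The noradrenaline transporter Slc6a2 (chr8:95483978-95525566, plus strand) had 792 and 688 reads, or 0.995 RPKM (0.926 to 1.07) and 1.02 RPKM (0.941 to 1.09), with a log2 ratio of 0.03 (-0.12 to 0.18).

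Among the transcription factors, Nr4a2 (Nurr1, chr2:56959241-56976414, minus strand), an orphan nuclear receptor required for midbrain dopamine neurons and expressed in other neurons as well, had the highest level of all members. It had 5498 BxC and 4924 CxB reads, or 10.5 RPKM (10.2 to 10.8) and 11.1 RPKM (10.7 to 11.4), above 81.0% and 81.8% of protein-coding genes. Its log2 ratio was 0.07 (0.02 to 0.13) by reads and 0.07 (-0.03 to 0.17) by positions. Pitx3 (chr19:46210175-46222865, minus strand), a homeodomain factor of midbrain dopamine neurons and the lens, had the lowest level, with 79 and 72 reads or 0.389 RPKM (0.308 to 0.485) and 0.417 RPKM (0.326 to 0.525). Nr4a2 was thus 27 (21.6 to 34.2) and 26.5 (21 to 34.0) times as high as Pitx3 per kb. Fev (Pet-1, chr1:74928083-74931993, minus strand), an ETS factor largely restricted to serotonin neurons in the brain, had 215 and 173 reads, or 1.03 RPKM (0.898 to 1.18) and 0.975 RPKM (0.835 to 1.13). Its log2 ratio was -0.08 (-0.38 to 0.21) by reads and -0.32 (-0.74 to 0.09) by positions. The interval of Pitx3 was the widest by reads, 0.10 (-0.38 to 0.58), and like that of Fev it held 0.

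**Figure D1:**
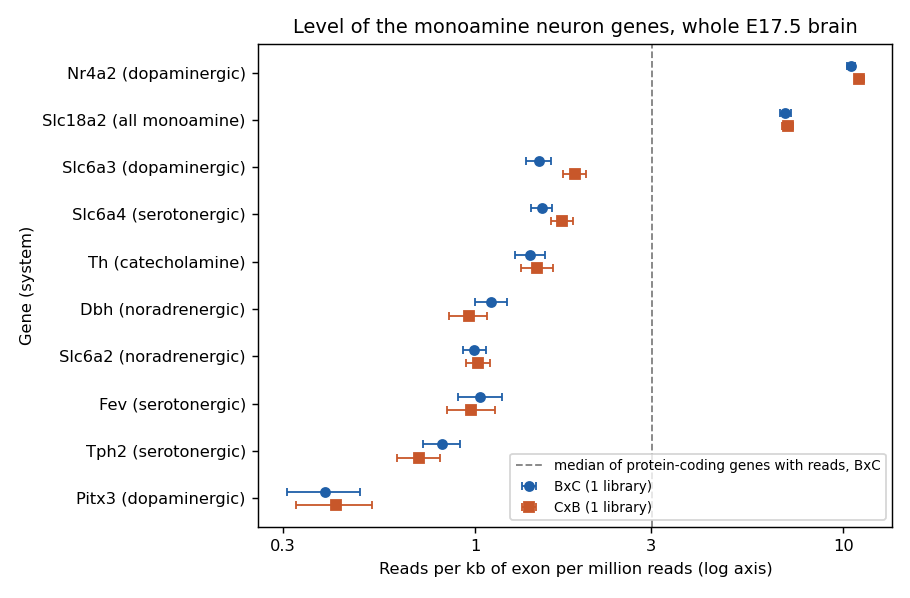
Level of each member in RPKM (log axis) for the BxC library (circles) and the CxB library (squares), with exact Poisson 95% intervals; the dashed line is the median of protein-coding genes with reads in BxC. Nr4a2 and Slc18a2 lie above that median and the other 8 members below it. The level of Slc18a2 rests on its 5′ exons.

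By reads over all exons, the order of the levels was Nr4a2, Slc18a2, a group of Slc6a4, Slc6a3 and Th, a group of Dbh, Fev and Slc6a2, then Tph2 and Pitx3. Within the groups, Slc6a4 and Slc6a3 were not told apart by their counts in either library, with Slc6a4 1.02 times as high in BxC (0.922 to 1.13) and Slc6a3 1.08 times as high in CxB (0.977 to 1.2). Slc6a3 was 1.05 times as high as Th in BxC (0.931 to 1.19) and 1.26 times in CxB (1.11 to 1.44), where Slc6a4 was 1.17 times as high as Th (1.04 to 1.32). Neither Dbh and Fev nor Fev and Slc6a2 were told apart in either library. The order within the groups depended on the count. By positions in BxC, Slc6a4 was 1.25 times as high as Slc6a3 (1.08 to 1.47), Slc6a3 was 0.745 times as high as Th (0.624 to 0.888), and Fev was 1.25 times as high as Slc6a2 (1.01 to 1.53), each beyond counting error. Over the longest coding transcript alone, the mean level of the libraries was 2.56 RPKM for Slc6a4, against 1.62 over all its exons, 1.86 for Th and 1.67 for Slc6a3. Of the members listed as serotonergic, Slc6a4 was 1.87 (1.64 to 2.14) and 2.45 (2.11 to 2.85) times as high as Tph2 per kb. Tph2 was 0.786 (0.658 to 0.941) and 0.721 (0.588 to 0.884) times as high as Fev. Whether the reads of these genes came from the same cells was not tested. Of the members listed as noradrenergic, Slc6a2 was 0.901 (0.797 to 1.02) and 1.06 (0.921 to 1.22) times as high as Dbh.

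Over the 9 members past the minimum the median log2 ratio was 0.03, with a range from -0.21 to 0.33, beside a median of -0.00 and a 5th to 95th percentile of -0.29 to 0.28 over all 15427 genes. By reads, the interval lay above 0 for 3 members (Slc6a3, Slc6a4 and Nr4a2), below 0 for 0 and held 0 for 6. By positions it lay above 0 for 2 members, Slc6a3 and Slc18a2. Slc6a3 was therefore the only member whose interval left out 0 by both counts. In BxC the members had from 1.72 reads per position for Pitx3 to 4.26 for Slc18a2, and the whole library had 3.53, so that all members but Slc18a2 were below the library. Reads copied from 1 fragment and reads of separate fragments with the same alignment cannot be told apart, and the intervals by reads are then too narrow.

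**Figure D2:**
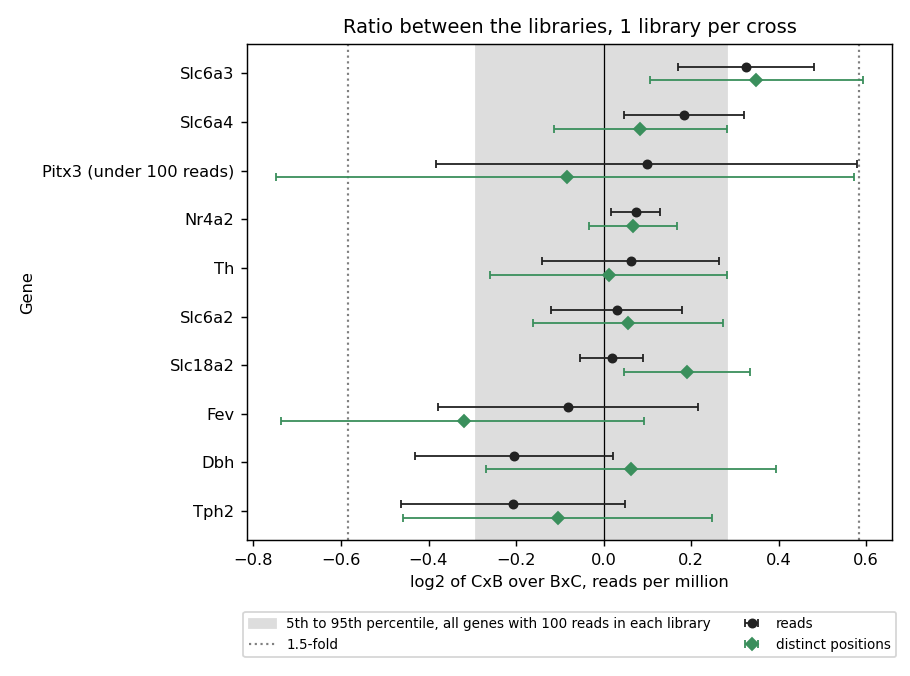
The log2 ratio of CxB over BxC for each member, by reads (circles) and by distinct positions (diamonds), with exact binomial 95% intervals; the grey band is the 5th to 95th percentile of all genes with 100 reads in each library and the dotted lines mark 1.5-fold. By reads, only the value of Slc6a3 lies outside the band, and no member's value reaches 1.5-fold by either count. The band is of ratios by reads, and none was computed for positions, where the values of Slc6a3 and Fev lie beyond it.

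The exons of Slc18a2 were covered very unevenly, with exons 1 to 3 the deepest in both libraries. Exon 1 (141 bases, untranslated) had 1203 BxC and 870 CxB reads, exon 2 had 359 and 252, and exon 3 had 1144 and 912, where exon 4 had 16 and 9. The mean depth over exons 1 to 3 was 144 and 110 reads per base, against 13 and 12.4 over exons 4 to 15, a ratio of 11.1 and 8.84. By positions the ratio was smaller, 2.16 and 2.69. Over 6505 genes with at least 10 exons and 100 reads in each library the median of this ratio was 1.27 and 1.26 by reads and 1.07 and 1.10 by positions. Genes at least as high as Slc18a2 in both libraries made up 1.17% of these by reads and 5.17% by positions. This measure was chosen after the depths were seen.

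Depth was uneven within exon 3. It was 27.3 and 13.8 reads per base over chr19:59337530-59337579, between deeper stretches on both sides. Over chr19:59337630-59337679 the depth was 157 and 193 reads per base, and over the next 50 bases 11.9 and 18.1. Of the junctions of exons 1 to 3, intron 1 was crossed by 26 and 15 reads and intron 2 by 165 and 104, at 22 and 19 positions, while intron 3 was crossed by 3 and 2. The most read single alignment held 335 reads in BxC and 238 in CxB, 9.80% and 8.08% of all Slc18a2 exon reads. Intron 13 also held a stretch of high depth outside any annotated exon, over chr19:59360613-59360712 with 75 and 70.4 reads per base, or 14.5 and 15.1 by positions, while the median depth over the introns other than 1, 2 and 13 was 1.09 and 0.785.

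**Figure D3:**
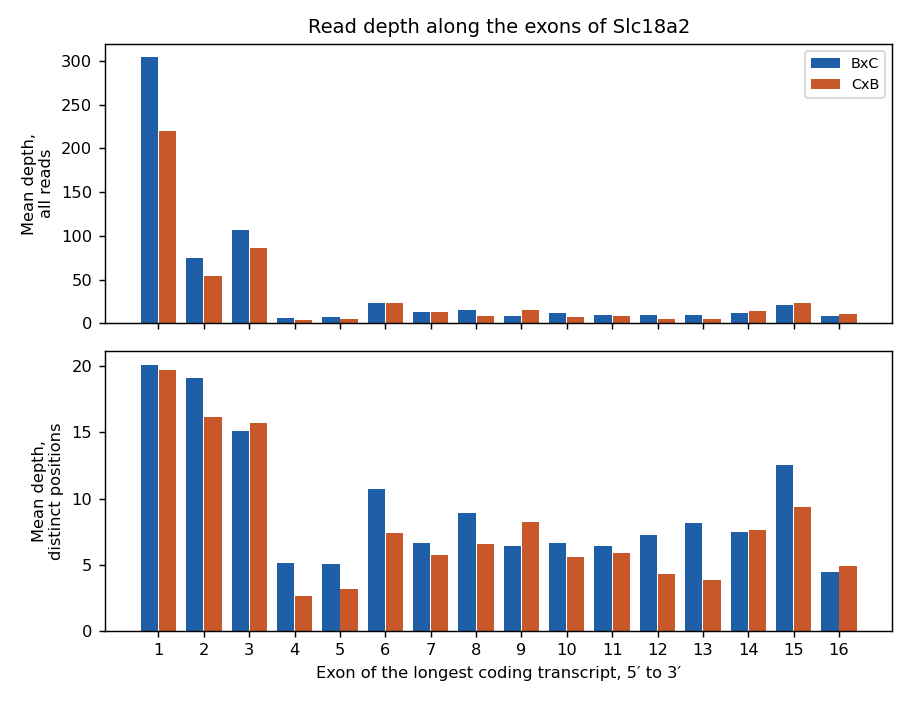
Mean read depth per base over each of the 16 exons of the longest coding transcript of Slc18a2, 5′ to 3′, by all reads (top) and by distinct positions (bottom), for BxC and CxB. Exons 1 to 3 are the deepest in both libraries and on both scales, and the step down to exon 4 is smaller by positions.

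By reads, the ratio between the libraries was not the same along Slc18a2. Summed over exons 1 to 3 it was -0.18 (-0.26 to -0.10) on the log2 scale, over exons 4 to 15 it was 0.17 (-0.02 to 0.36), and over exon 16, the last, it was 0.58 (0.41 to 0.74), from 541 BxC and 686 CxB reads. By positions exons 1 to 3 were at 0.17 (-0.05 to 0.39), exons 4 to 15 at -0.11 (-0.37 to 0.15) and exon 16 at 0.37 (0.13 to 0.61). CxB was thus higher in the last exon by both counts, while the sign turned in the other parts, and by positions the intervals of all 3 parts overlapped. The difference between the last exon and all others was 0.69 by reads, and 1.53% of 10487 genes with 100 reads in both parts had a difference at least as large in either direction. By positions it was 0.29, and the share was 11.5%.

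Tph2 showed the same kind of split. Its last exon had 114 BxC and 118 CxB reads, a log2 ratio of 0.28 (-0.10 to 0.67), and its other exons 190 and 104, a log2 ratio of -0.64 (-1.0 to -0.28). The difference of 0.92 was matched or passed by 0.372% of the 10487 genes by reads. It was 0.25 by positions, where 15% of genes were at least as far apart. For the other 5 members that could be split in this way (Th, Slc6a3, Nr4a2, Slc6a2 and Slc6a4) the difference by reads ran from -0.36 in Slc6a3 to 0.23 in Th, which were at 0.03 and 0.07 by positions, beside a median of 0.05 and a 5th to 95th percentile of -0.32 to 0.46 over all genes. These splits were made after the values were seen.

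The share of exon reads in the last exon differed widely between members. In Fev the last exon holds 71.4% of the exon bases and took 93.0% (88.8 to 96.0) of BxC and 93.6% (88.9 to 96.8) of CxB reads. In Slc6a2, whose last exon is 4042 bases long, it holds 65.4% of the bases and took 75.9% (72.7 to 78.8) and 75.6% (72.2 to 78.7). In Slc18a2 it holds 57.9% of the bases and took 15.8% (14.6 to 17.1) and 23.3% (21.8 to 24.9), or 34.5% and 39.1% by positions. The libraries gave separate intervals for Slc18a2, for Nr4a2 at 23.5% (22.4 to 24.6) and 21% (19.9 to 22.2), and for Tph2 at 37.9% (32.4 to 43.6) in BxC and 53.2% (46.4 to 59.9) in CxB. By positions Tph2 was at 38.3% and 41.8%, closer together. How many of all genes have separate intervals in this way was not computed, and the intervals hold counting error alone. These members are therefore not set apart from other genes by it. For Nr4a2 the difference in log2 ratio between the last exon and the others was -0.20 by reads, and 36.5% of genes were at least as far apart. Across the exons of a member the depth followed a like order in both libraries, with Spearman's rho between 0.54 for Dbh (12 exons) and 0.93 for Slc6a4 (15 exons) over 8 members; exons share their sequence and length between the libraries, and this is a description only.

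Single exons stood out in some members. In Slc6a3, exon 10 (129 bases) had a mean depth of 24.9 BxC and 23.3 CxB reads per base but 3.45 and 3.74 by positions, which is close to its neighbours. In Dbh, exons 10 and 11 had depths of 23.5 and 19.6 in BxC and 14.7 and 10.9 in CxB, against 3.29 and 3.36 in the last exon. By positions these exons of Dbh were at 4.71 and 5.64 in BxC and 4.36 and 4.72 in CxB, against 2.35 and 1.88 in the last exon. In Slc6a4, exon 2 (59 bases, untranslated) had 0 reads in both libraries. Exons 6 and 7 of Slc6a4 had 6 reads each in BxC and 10 and 6 in CxB, while exon 8 had 60 and 47.

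Of the 120 annotated introns of the 10 genes, 69 were crossed by spliced reads in both libraries, 21 in 1 library and 30 in neither, by 818 reads in BxC and 741 in CxB. The 101 introns of the longest coding transcripts held nearly all of these, with 66 crossed in both libraries and 14 in neither. All 15 introns of this transcript of Slc18a2 and all 7 of Nr4a2 were crossed in both libraries, as were 11 of 14 in Slc6a3, 8 of 12 in Th, 7 of 13 in Slc6a2, 6 of 11 in Dbh, 6 of 10 in Tph2 and 6 of 14 in Slc6a4. Pitx3 had 1 junction read and Fev 2, all in BxC. No spliced read with an unannotated gap ended within a member. By the study's methods a spliced read could be placed only where it joined exons of known gene models, with some exon skipping allowed.

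**Figure D4:**
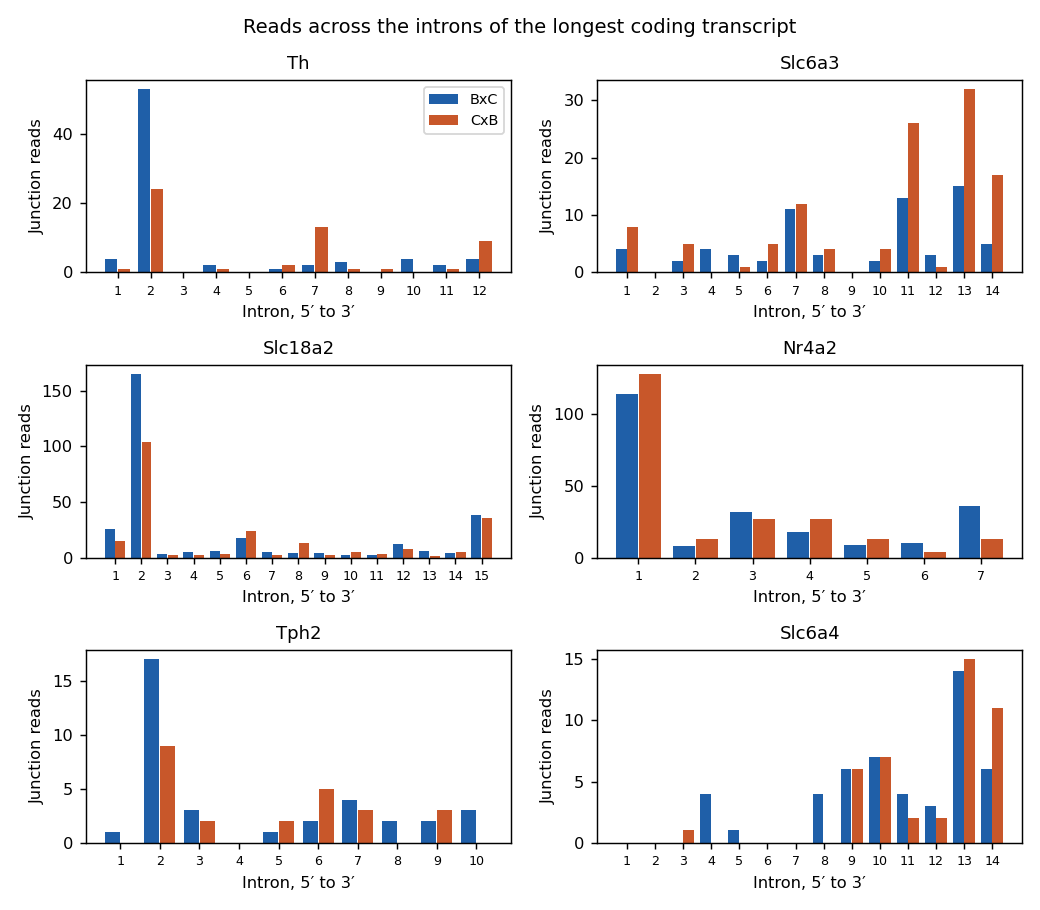
Spliced reads across each intron of the longest coding transcript, 5′ to 3′, for 6 members in BxC and CxB; each panel has its own scale. Intron 2 of Slc18a2 with 165 and 104 reads and intron 1 of Nr4a2 with 114 and 128 reads are the highest.

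Of 19 introns found only in other transcripts, 3 were crossed. Nr4a2 has alternative first exons, and the junction from the exon of its longest coding transcript was crossed by 114 BxC and 128 CxB reads, against 17 and 11 for the junction from the upstream exon over chr2:56965484-56976239. Within Nr4a2, an alternative junction over chr2:56961030-56961473 was crossed by 2 and 3 reads, and the usual one by 10 and 4. In Slc6a4, 6 and 5 reads joined exon 1 to exon 3 directly, over chr11:76812178-76823833, and 0 reads joined either to exon 2. The junctions of Th to an exon about 32 kb upstream (introns of 32403 and 33491 bases) had 0 reads in both libraries, as did the junction of Slc18a2 that leaves out exon 8.

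Junction reads per coding intron were set against the mean depth of the coding sequence, and the median over 12824 genes was 0.592 for BxC and 0.593 for CxB. Th was above this median in both libraries, at 0.746 and 0.632, as were Slc6a3 at 0.657 and 0.955 and Tph2 at 0.712 and 0.921. Nr4a2 at 0.274 and 0.244, Dbh at 0.235 and 0.287 and Slc6a4 at 0.350 and 0.322 were below it. In Slc18a2, where intron 2 held more spliced reads than any other, it was 0.485 and 0.440.

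Intron reads were few. On the strand that holds most exon reads, introns had 2.15% (2.06 to 2.24) of the reads per kb of the exons over all members and both libraries. This value pools the reads, and Nr4a2 and Slc18a2 had the most of them. The highest shares were in Slc18a2 with 4.91% in BxC and 5.11% in CxB, Nr4a2 with 4.29% and 4.16%, and Pitx3 with 6.07% in CxB, from 32 reads on either strand, against 1.77% from 11 in BxC. The share of Slc18a2 includes the deep stretch of intron 13. That intron had a mean depth of 12.8 and 12.3 reads per base, against a median of 1.09 and 0.785 over the introns other than 1, 2 and 13. Th had 0.988% and 1.59%, and Slc6a2 0.682% and 0.906%. The 36013 intron bases of Th include the stretch up to an upstream exon whose junctions had no reads. The share of Th therefore depends on the gene model. The dUTP method given in the study's methods retains strand, and the strand opposite to the gene is then the sense strand, yet it held only 56.6% of BxC and 57.1% of CxB exon reads over 30338 genes. It held 57.0% (56.3 to 57.6) over the members, from 48.6% for Pitx3 in CxB to 64.7% for Dbh in CxB. Both strands were therefore counted, and reads of overlapping antisense transcripts are included.

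The exons of the members could be covered by unique alignments almost in full. Of all 36-base windows of their exons, between 98.4% in Slc6a2 and 100% in 7 members occurred once in the genome, so that few windows were shared with another place, the related transporter genes included. The GC content of the exons ran from 43.0% in Slc18a2 to 67.4% in Pitx3, with 63.2% in Fev. Pitx3 and Fev had the fewest reads and also the fewest exon bases, 1575 and 1617. Per kb, Fev was above Tph2 in both libraries, and the exons of Tph2 had 46.7% GC.

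Th lies among imprinted genes on chromosome 7, with Ins2 193 kb and Igf2 226 kb away at lower coordinates and Ascl2 at higher ones. The nearest annotated genes were Ascl2, a maternally expressed bHLH factor of the placenta, 35.7 kb away, and the gene model Gm6471, 40.5 kb away. Ascl2 had 18 BxC and 26 CxB reads over its exons and Gm6471 3 and 0. The nearest entry of the catalog of imprinted genes that the authors deposited was that of Ascl2, under its older name Mash2. Th itself is not in that catalog, nor is any other member, and each other member on a chromosome with an entry lay at least 6116 kb from one. The log2 ratio of Th was 0.06 (-0.14 to 0.26). Since reads carry no allele here, a ratio between reciprocal crosses does not measure imprinting.

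Of the other genes of the pathway, 8 of 9 for synthesis and cofactors had 100 reads in each library and 0 were 1.5-fold apart, with a median log2 ratio of 0.12. Ddc, the decarboxylase that follows Th and Tph2, had 1129 BxC and 923 CxB reads, or 2.01 and 1.93 RPKM. Unlike the members, Ddc is an entry of the authors' catalog of imprinted genes, as are some other genes of the lists. Qdpr, which recycles the cofactor tetrahydrobiopterin, had the highest level of that list at 13.4 and 13 RPKM. Pnmt, which makes adrenaline, was the gene under the minimum, with 61 and 77 reads. Of the 5 genes of breakdown, all passed the minimum and 0 were 1.5-fold apart, with a median of -0.17. Maob, on the X chromosome, was at 1.14 and 0.824 RPKM, a log2 ratio of -0.47 (-0.70 to -0.24) by reads and -0.25 (-0.60 to 0.09) by positions. Of 4 other transporters 3 passed, 0 were 1.5-fold apart and the median was 0.08; Slc29a4, a low-affinity monoamine transporter, was the highest at 33.2 and 35.0 RPKM.

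The factors that specify these neurons were closer to 0. All 11 midbrain dopamine factors passed the minimum, 0 were 1.5-fold apart and the median log2 ratio was 0.00, from -0.10 to 0.29. Neurog2, a proneural factor that is also widespread in the cortex, was the highest at 9.38 and 8.73 RPKM. Of 7 noradrenergic factors 6 were annotated, 5 passed, 0 were apart and the median was -0.07. All 7 serotonergic factors passed, 0 were apart and the median was -0.04. Insm1, a zinc finger factor of newborn neurons, was the highest of both of these lists at 17.3 and 17.4 RPKM.

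Of the receptors, 2 of 5 for dopamine, 7 of 9 adrenergic and 11 of 14 for serotonin passed the minimum, and 0 were 1.5-fold apart, with medians of 0.03, 0.03 and 0.10. The highest were Drd2 at 5.85 and 5.43 RPKM, Adra2a at 7.75 and 9.09 and Htr1b at 4.26 and 4.86. Each was above Th in both libraries. All 4 histamine genes passed and 2 were 1.5-fold apart, in opposite directions, with a median of 0.33. Hdc, which makes histamine, had 382 BxC and 169 CxB reads, a log2 ratio of -0.94 (-1.21 to -0.68) by reads and -0.83 (-1.18 to -0.49) by positions. Hrh2, a histamine receptor, had 101 and 129 reads, a log2 ratio of 0.59 (0.20 to 0.98) by reads and 0.19 (-0.27 to 0.66) by positions. Hrh3, the receptor on histamine neurons themselves among others, was the highest at 2.77 and 3.12 RPKM.

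**Figure D5:**
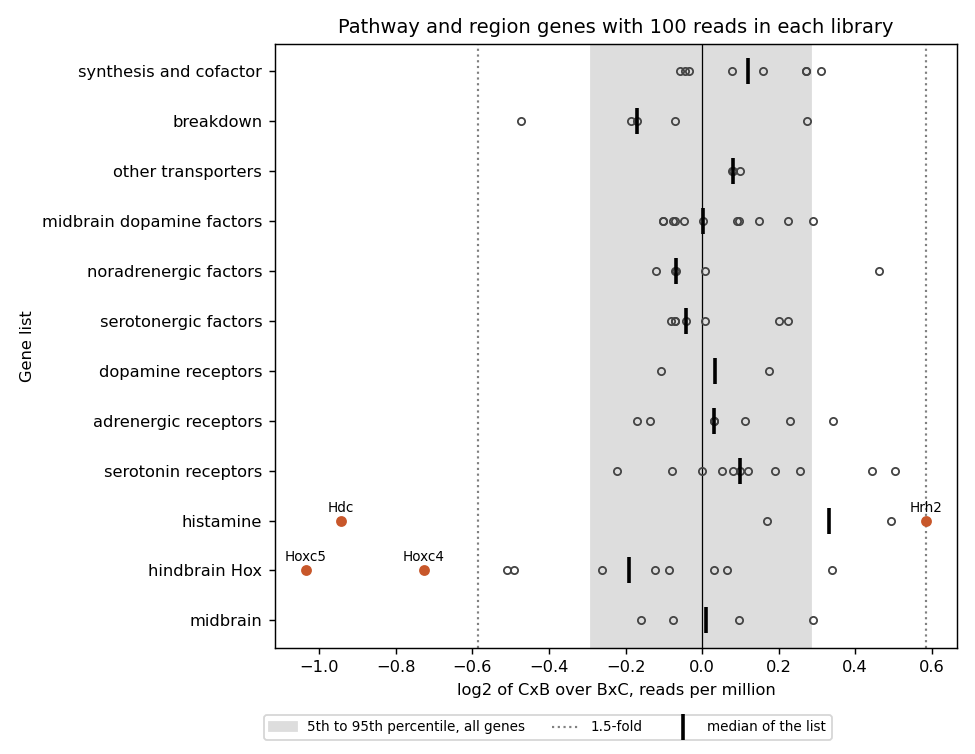
The log2 ratio of CxB over BxC for each gene with 100 reads in each library in 12 lists of pathway and region genes, with the median of each list as a bar, the 5th to 95th percentile of all genes in grey and 1.5-fold as dotted lines. Filled points are the 4 genes at least 1.5-fold apart, of which Hdc, Hoxc4 and Hoxc5 are higher in BxC and Hrh2 in CxB.

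Of 11 annotated hindbrain Hox genes 10 passed and 2 were 1.5-fold apart, Hoxc4 with 3334 BxC and 1714 CxB reads (log2 ratio -0.73, -0.81 to -0.64) and Hoxc5 with 342 and 142 reads (-1.04, -1.33 to -0.75). By positions Hoxc5 was at -0.92 (-1.31 to -0.54), while Hoxc4 was at -0.14 (-0.34 to 0.06). The list ranged up to 0.34, its median was -0.19 and its summed level 33.7 RPKM in BxC and 25.8 in CxB. The members listed as noradrenergic or serotonergic went both ways by reads. Dbh was at -0.20 (0.06 by positions), Tph2 at -0.21, Fev at -0.08, Slc6a2 at 0.03 and Slc6a4 at 0.18. Which cells of the whole brain their reads came from was not tested, nor was the part of the amount of hindbrain tissue in their ratios. All 4 midbrain genes passed, 0 were apart and the median was 0.01, with Otx2 the highest at 5.65 and 5.37 RPKM. All 10 forebrain genes passed, 0 were apart and the median was -0.05; their summed level was 314 and 305 RPKM, so that the labelled tissue carried its defining markers.

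Several of the members are also made outside the brain, in sympathetic ganglia, the adrenal medulla, the pineal gland and the eye. Of the sympathetic and chromaffin list, the defining factors Hand1 and Hand2 had 1 read each in BxC and 0 in CxB, while 2 of 5 genes passed the minimum, 0 were 1.5-fold apart and the summed level was 4.22 and 5.2 RPKM, most of it from Chrna3 at 3.0 and 3.49, which brain neurons also express. In the pineal list 1 of 3 annotated genes passed, Tph1 at 0.253 and 0.282 RPKM, and the summed level was 0.557 and 0.610. In the retina list 1 of 4 passed, and the summed level was 0.733 and 1.00. For the pituitary, 2 of 7 genes passed, with log2 ratios of -0.02 and 0.44. Pomc was the highest at 1.69 and 1.67 RPKM, and of the 7 only Gh and Cga had 0 reads. For sensory ganglia, 3 of 6 passed with Prdm12 the highest at 1.18 and 1.59 RPKM. All 4 meningeal genes passed with Col1a1 at 27.7 and 25.4 RPKM, and 2 of 3 red blood cell genes passed with Hba-a1 at 83.6 and 68.6. None of the genes of these last 4 lists that passed was 1.5-fold apart, and the part of these tissues in the members' levels was not tested. Over all lists, 93 of 119 annotated genes passed and 4 were 1.5-fold apart, 4.30%, beside 1.10% of all genes, with a median log2 ratio of 0.00. The 4 became 1 by positions and 1 with sense reads only, where fewer genes pass the minimum.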

How the data were processed

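PolyA+ RNA of whole brain was sequenced in 36-base reads, 1 library per cross, by a dUTP protocol. The deposited alignments to mm9 were made by the authors with Novoalign, per the study's methods, and uniquely aligned reads were kept; which of the described alignments was deposited is not given in the sources used here. Each deposited line holds an alignment and a whole-number count, which was read from its values as the number of identical reads; it was not normalized by the authors. Another column of numbers was not used, and 0 columns of per-sample values belonged to no sample. The catalog of imprinted genes was used only for positions and names.

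Reads overlapping the union of a gene's exons (GENCODE vM1, mm9) were counted on either strand, and a spliced read was counted at an intron whose ends equalled its gap. Ratios were described for genes with at least 100 reads in each library, and 1.5-fold was the rule of size. Intervals were exact Poisson for levels and exact Clopper-Pearson for ratios and shares, at 95%. Python 3.11.15, numpy 2.4.6, pandas 2.3.3, scipy 1.17.1 and matplotlib 3.10.9 were used, and the counting was tested on simulated data. The text names all members, the gene of each list with the highest mean RPKM, every list gene past 1.5-fold and the nearest gene on each side of Th; Ddc, Maob, Pnmt, Hand1, Hand2, Gh and Cga were named after their values were seen, and some genes that this rule takes are not reported here. The rule for the members is by symbol alone, but the members and lists were chosen with earlier results of these data known. Tfap2b and Asmt were not found in the annotation, and Hoxa3, annotated at 2 places, was left out. Alternatives counted distinct positions or sense reads, and changed the minimum, the scaling, the fold and the exons used.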

Additional observations from a re-analysis of the deposited data

How the results depend on the processing

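The count of members past 1.5-fold was 0 under each alternative tried, the median log2 ratio of the members stayed between 0.02 and 0.07, and the members past the minimum numbered 8 to 10. Introns with junction reads in both libraries numbered 69, 60 with 8 bases on each side and 46 with 2 distinct positions. The median level of the members, 1.24 RPKM, became 0.751 with sense reads only, 1.38 over the longest coding transcripts and 2.15 by positions, which are scaled to the library's positions. By positions the sense share was 54.6% rather than 57.0%, the last-exon share 36.3% rather than 28.0%, and introns were at 3.63% of exons rather than 2.15%. These shares pool the reads of all members and both libraries, so that Nr4a2 and Slc18a2, with the most reads, weigh most in them. The 4 list genes past 1.5-fold became 1 by positions, 1 with sense reads only, 1 at 2-fold, 10 with a minimum of 10 reads and 12 with no minimum; these list alternatives were chosen after seeing the data, and fewer genes pass the minimum by positions or by sense reads. No paired analysis was possible because each cross has 1 library and no test was run. Depth limits Pitx3 and Fev most, the members with the fewest reads.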
